A study of Mus musculus with 2 samples.

Results

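Classical monocytes are short-lived phagocytes that arise in the bone marrow from dividing precursors, leave for the blood under the control of the chemokine receptor CCR2, and become macrophages and inflammatory effector cells in tissue. They carry the receptor for macrophage colony-stimulating factor, Csf1r, and the surface antigen Ly6C, part of which is encoded by Ly6c2. In mice they respond strongly to interferons and to signals that act through NF-kB, and the monocyte lineage also supplies precursors of osteoclasts, the cells that resorb bone. RNA was counted in single cells of leg bone marrow (femur and tibia) from the C57/BL6 strain. Mice behind the control library had received sodium citrate solution and their blood sugar was normal. Those behind the library of type 1 diabetes (T1D) had received streptozotocin, a toxin of pancreatic beta cells, and their blood sugar was high. There was 1 library per condition, the sources used here do not give the number, age or sex of the mice behind each, and the controls and the T1D mice shared the strain, the enzymatic release of cells from bone fragments, the lysis of red cells and the library chemistry.

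Classical monocytes outside the cell cycle were chosen by transcripts counted in each cell. Kept cells had 200 or more genes, and mitochondrial transcripts took no more than 20% of their counts. Such a cell was a member if it had Csf1r, Ccr2 or Ly6c2, and at least 1 of Fn1, Vcan, F13a1 and Ms4a6c. It also had fewer than 2 of the 6 division genes Mki67, Top2a, Pclaf, Birc5, Rrm2 and Cdk1, fewer than 2 of C1qa, C1qb and C1qc, and no count of Cd79a, Siglech, Ace, Treml4 or Cd209a, which mark B cells, plasmacytoid dendritic cells, nonclassical monocytes and dendritic cells. This gave 1023 members of 28382 kept cells, 546 of 12803 in the control library and 477 of 15579 in the T1D library. Because the choice rests on these same counts, the genes of the rule are given as descriptions. With 1 library per condition no difference between conditions could be tested. Intervals below are exact 95% intervals that cover counting error only, and say nothing of the spread between mice. Those of ratios of summed counts also leave out the spread between cells, and are too narrow where few cells hold most counts.

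The members made up 4.26% of kept control cells (Clopper-Pearson interval 3.92 to 4.63%) and 3.06% of kept T1D cells (2.80 to 3.34%). The share was therefore 1.39-fold higher in the control library. The libraries differed in depth, with a median of 3633 counts per kept control cell and 2757 per kept T1D cell. When every cell was thinned to 1000 counts and the members were chosen again, the shares were 1.80% (1.57 to 2.04%) and 1.37% (1.19 to 1.56%). Among kept cells that had Csf1r the order was the reverse, since members were 30.5% of 1792 such control cells and 35.1% of 1360 such T1D cells. The 5 excluding genes removed more cells from the control library, where 731 cells met every other criterion, than from the T1D library, where 512 did. Ace alone kept out 57 control and 14 T1D cells, and Cd79a alone kept out 52 and 3. A change in the share of cells of other types moves these shares as well.

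Many members lay near the Csf1r threshold of the rule. A single Csf1r count was all that 257 control members (47.1%) and 284 T1D members (59.5%) had. These cells, just inside the threshold, had Fn1 at 1954 CPM (counts scaled to one fixed total for each group of cells) in the control and 2473 CPM in the T1D library, against 1993 and 2909 CPM in members with 2 or more Csf1r counts. Just outside were 695 control and 1632 T1D cells that met every criterion except Csf1r. Fn1 stood at 1267 and 1523 CPM in them, and the neutrophil granule gene Ngp at 14762 and 12918 CPM, against 3645 and 5164 CPM in members with a single Csf1r count. At the division threshold, 172 control and 152 T1D members had 1 of the 6 division genes, and 58 control and 66 T1D cells were kept out with exactly 2.

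The monocyte genes given here were part of the rule, so their detection describes the choice and is no test of identity. Fn1, which encodes the matrix protein fibronectin, was counted in 91.2% of control and 92.7% of T1D members. Ccr2 was in 96.7% and 91.6%, Ly6c2 in 90.5% and 91.4%, and F13a1 in 91.4% and 91.4%. Vcan, in 45.6% and 77.4%, and Ms4a6c, in 61.4% and 46.8%, were in fewer. RNA released from other cells can be counted with a cell, so detection was set beside that in T cells, which should lack most monocyte transcripts. T cells had at least 2 of Cd3d, Cd3e, Cd3g, Lck and Cd2, and numbered 323 in the control and 262 in the T1D library. T cells that were also members, 4 and 6, were left out of the background values, and the median totals were 3212 and 2887 counts in T cells against 4378 and 3791 in members. With each cell thinned to 1000 counts, Fn1 remained in 72.0% and 79.2% of members, against 2.82% and 5.08% of T cells. Ly6c2 separated the cells less sharply, at 66.7% and 66.5% of members against 41.4% and 45.3% of T cells.

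**Figure D1:**
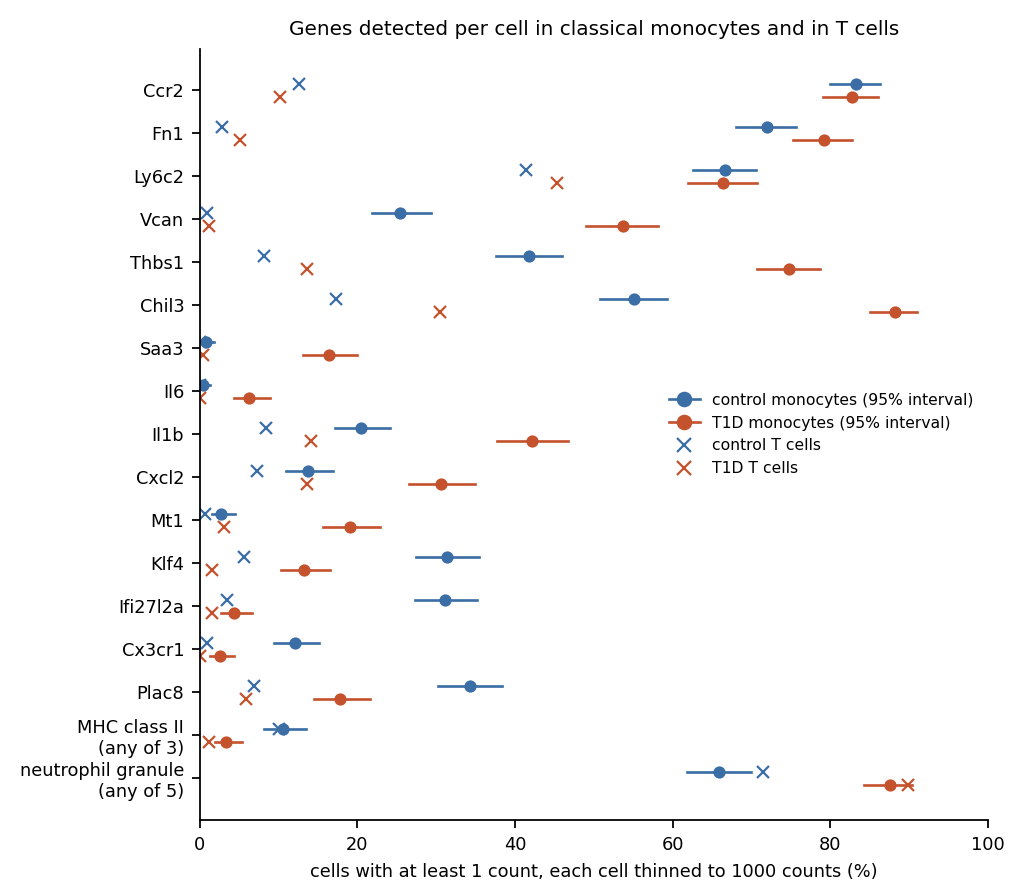
Share of cells with at least 1 count (x axis, %), after each cell was thinned to 1000 counts, for named genes and for any of 3 MHC class II genes or any of 5 neutrophil granule genes (rows). Circles with bars are classical monocytes with exact 95% intervals and crosses are T cells, blue for control and red for T1D; Fn1 was in 72.0% and 79.2% of monocytes, whereas for the neutrophil granule genes the T cells, at 71.5% and 89.8%, stood at or above the monocytes.

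Outside the genes of the rule, the transcripts with the largest fold over all other kept cells, by the lower of the 2 libraries, were those of mononuclear phagocytes. Clec4a1, a C-type lectin receptor, stood at 192 CPM in control and 135 CPM in T1D members, 7.83-fold and 6.75-fold over the other kept cells. The interferon-inducible genes Slfn5 (7.96-fold and 6.68-fold) and Ifi207 (6.61-fold and 7.08-fold) were also in this set of 15, with Atf3, S100a4, Lrp1, Ctss, Apoe and Msr1. These folds describe a population chosen on the same counts and carry no test.

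To compare the conditions, the counts of the members were summed in each library, 2568203 in the control and 1882509 in the T1D library, and scaled to CPM. A gene was taken as past the size rule where its log2 ratio of T1D over control, with 5 CPM added to each, was at least 1 in size, its mean over the libraries was at least 25 CPM, and the 95% interval of its ratio of counts excluded 1. Of 4321 genes with a mean of at least 25 CPM, 85 were past the rule and higher in T1D (1.97%), and 75 were past it and lower in T1D (1.74%). The median log2 ratio over all 4321 genes was -0.09, and 2573 of them (59.5%) lay below 0. The gene lists below are read against these figures, and a listed gene is called measured where its mean was at least 25 CPM.

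**Figure D2:**
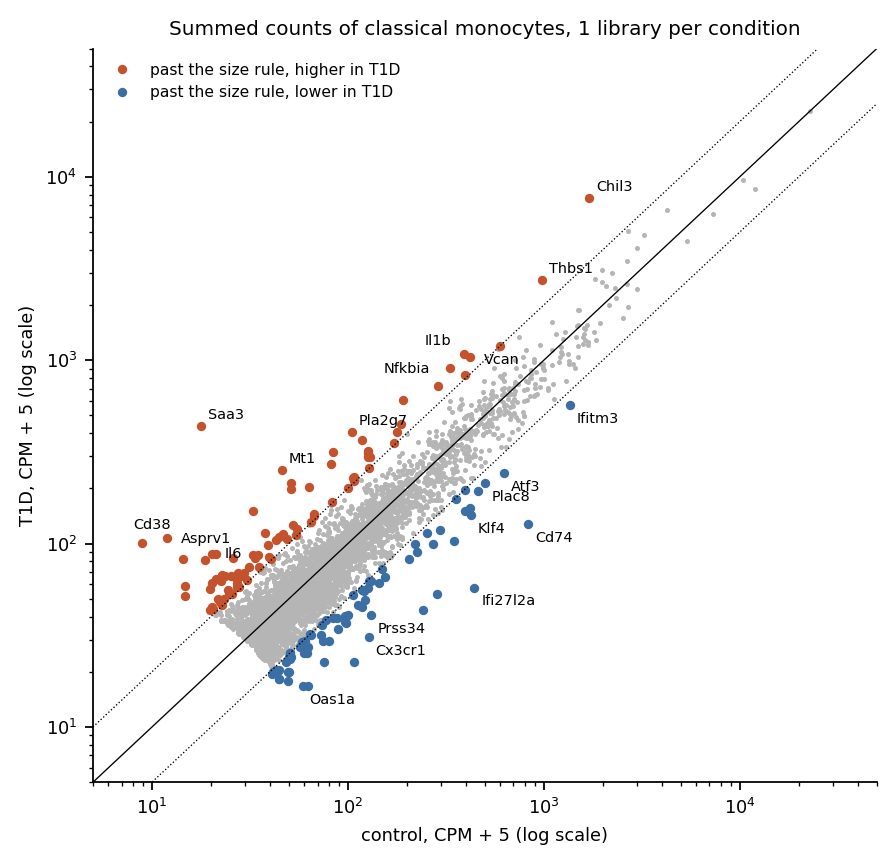
Summed CPM of classical monocytes in the control (x axis) and T1D library (y axis), each with 5 CPM added, on log scales, for genes with a mean of at least 25 CPM. The solid line is equality and the dotted lines a log2 ratio of 1 either way; red and blue points are the 85 and 75 genes past the size rule, Saa3 and Chil3 stand far above the line, Ifi27l2a and Cd74 far below, and the ribosomal RNA feature lies beyond the axes.

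Several inflammatory genes were higher in T1D. Of 16 measured genes in a list of 21 inflammatory cytokines and NF-kB targets, 13 had a ratio above 0, 6 were past the size rule and higher, none was past it and lower, and the median log2 ratio was 0.66. Saa3, which encodes an acute-phase serum amyloid protein, had the largest difference of any gene in the members, at 12.8 CPM in the control and 433 CPM in the T1D library. That is 33.7-fold higher in T1D (23.8 to 49.3). The counts came from 12 control and 118 T1D members, so most monocytes of either library had none. After thinning, 0.733% of control and 16.4% of T1D members had Saa3, against 0% and 0.391% of T cells. For the 0 of 319 control T cells, an upper limit of 3 cells gives 0.940%, which is not an exact interval.

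The cytokine genes Il1b and Il6 were also past the rule. Il1b, encoding interleukin-1 beta, stood at 389 CPM in the control and 1082 CPM in the T1D library, 2.78-fold higher (2.58 to 3.01). Its thinned share was 20.5% of control and 42.1% of T1D members, against 8.46% and 14.1% of T cells. Il6, encoding interleukin-6, was rarer, at 15.2 and 82.9 CPM, 5.46-fold higher in T1D (3.82 to 7.96), in 17 control and 65 T1D members. A single control member held 28.2% of the control Il6 counts. The feedback inhibitors of NF-kB moved the same way. Nfkbia stood at 326 and 899 CPM (2.76-fold, 2.54 to 2.998) and Nfkbiz at 182 and 446 CPM (2.45-fold, 2.18 to 2.75). Both are also transcribed outside monocytes, and T cells had Nfkbia at 448 and 501 CPM. Il1r2, a decoy receptor for interleukin-1, stood at 102 and 216 CPM, beside 110 and 187 CPM in T cells. Its thinned share was 5.49% and 15.7% of members and 6.27% and 13.7% of T cells, so its values in both libraries are read as background. The receptors that sense microbial products changed less, with no pattern recognition receptor past the rule among 11 measured and a median of 0.40.

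Chemokines and their receptors were mixed. Among 6 measured chemokines 3 had a ratio above 0 and only Cxcl2, a neutrophil attractant, was past the rule, at 282 CPM in the control and 716 CPM in the T1D library (2.54-fold, 2.32 to 2.78). Its thinned share was 13.7% and 30.6% of members against 7.21% and 13.7% of T cells. Of 9 measured chemoattractant receptors, 7 had a ratio above 0. Fpr2, a formyl peptide receptor, stood at 79.0 and 309 CPM (3.91-fold, 3.33 to 4.61), and in T cells at 81.7 and 132 CPM. Fpr1 and the complement receptor C5ar1 were also past the rule and higher, but their control levels of 22.97 and 44.0 CPM were below those in T cells, 33.6 and 72.1 CPM, and C5ar1 at 100 CPM in T1D members stood beside 97.3 CPM in T1D T cells. Ccr2, which the rule used, stood at 2293 and 2466 CPM.

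Cx3cr1 went the other way. It encodes the fractalkine receptor, which is high on nonclassical monocytes. It stood at 123 CPM in control and 26.0 CPM in T1D members, 4.73-fold lower in T1D (3.49 to 6.52), in 184 and 36 cells. After thinning it was in 12.1% and 2.52% of members and in 0.940% and 0% of T cells. Cells with Ace or Treml4 were kept out by the rule, but the wider list of nonclassical monocyte genes had a summed level of 1315 CPM in control and 1360 CPM in T1D members.

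Of 7 measured secreted and matrix genes, Vcan and Thbs1 were past the rule and higher in T1D. All 7 had a ratio above 0, with a median of 0.43, but Vcan, Fn1 and F13a1 were used to choose the members, so this count and median are descriptions only. Vcan, a proteoglycan gene that the rule used, stood at 415 and 1032 CPM (2.48-fold, 2.30 to 2.68) and was counted in 45.6% of control and 77.4% of T1D members. Thbs1, encoding thrombospondin-1, an adhesive glycoprotein that activates TGF-beta, was at 977 and 2732 CPM (2.80-fold, 2.66 to 2.93). After thinning Thbs1 was in 41.8% and 74.8% of members and in 8.15% and 13.7% of T cells. The remaining 5 genes, Fn1, F13a1, Tgfbi, F10 and Plaur, were not past the rule, and Fn1 itself stood at 1975 and 2659 CPM.

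Chil3, encoding the chitinase-like lectin Ym1, had the largest summed level among the genes that were past the rule, at 1703 CPM in control and 7669 CPM in T1D members, 4.504-fold higher (4.35 to 4.66). It was in 408 of 546 control and 452 of 477 T1D members, and no member held more than 1.78% of its library's Chil3 counts. The median thinned count per cell was 1 in the control and 7 in T1D. T cells had 737 and 1181 CPM. Other genes with large ratios were Mt1, a metallothionein that binds zinc and copper, at 41.3 and 248 CPM (5.998-fold, 4.85 to 7.48), and Cd38, an ectoenzyme that consumes NAD, at 3.89 and 96.1 CPM (24.7-fold, 13.1 to 52.4). Cd38 counts came from 8 control and 127 T1D members, and T cells, which also transcribe it, had 44.1 and 19.7 CPM. Pla2g7, the enzyme that inactivates platelet-activating factor, stood at 99.7 and 401 CPM, 4.02-fold higher in T1D (3.49 to 4.65). Bst1 (46.3 and 193 CPM), Shtn1 (13.6 and 76.5 CPM) and Ier3 (113 and 364 CPM) followed. Asprv1, a protease gene of mature neutrophils here, was at 7.01 and 102 CPM in members, 14.4 and 80.0 CPM in T cells and 67.2 and 362 CPM in mature neutrophils, the cells with Retnlg and Cxcr2 and no Csf1r (4866 in the control and 6852 in T1D).

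Neutrophil transcripts moved with this side of the comparison. All 13 measured neutrophil granule genes had a ratio above 0, with a median of 0.64, and their summed level was 17038 CPM in control and 25904 CPM in T1D members. The median was 0.25 among members with no division gene and 0.43 among those with at least 2 Csf1r counts, in which Ngp stood at 2429 and 2689 CPM. Over the cells the 10th percentile, median and 90th percentile of that sum were 623, 1798 and 51496 CPM in the control and 1732, 4795 and 83284 CPM in T1D. Any of Ngp, Ltf, Camp, Lcn2 and Retnlg was found after thinning in 65.9% and 87.6% of members and in 71.5% and 89.8% of T cells, so these counts are read as background. The spread of the 90th percentile above the median marks cells with far more of them. Of the 85 genes higher in T1D, 52 stood at a higher level in mature neutrophils than in the members in both libraries, against 5 of the 75 lower ones. The share of all 4321 genes that did so was not counted, so neither number is read as an excess or a lack. How much neutrophil RNA adds to any single ratio was not tested. Saa3, Il6, Vcan, Mt1 and Shtn1 stood lower in mature neutrophils than in members in both libraries, with Saa3 at 0.108 and 13.5 CPM there. Without the members in which the 5 granule genes took over 1% of counts, 62 of the 85 and 60 of the 75 genes were still past the rule.

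The type I interferon response was the main group on the lower side. Of 39 measured genes in a list of 63, 37 had a ratio below 0, 15 were past the size rule and lower, none was past it and higher, and the median log2 ratio was -0.84. Ifi27l2a, a small interferon-inducible membrane protein gene, had the largest difference, at 438 CPM in control and 52.6 CPM in T1D members, 8.32-fold lower in T1D (6.77 to 10.3). It was counted in 341 of 546 control and 47 of 477 T1D members. After thinning its share was 31.1% of control and 4.40% of T1D members (2.75 to 6.65%), against 3.45% and 1.56% of T cells. The T1D members thus stood above the T1D T cells, but by less than in the control. Ifitm3, which restricts entry of enveloped viruses, stood at 1351 and 566 CPM (2.39-fold lower, 2.23 to 2.56), and Slfn5, a Schlafen gene that was also among the markers above, at 390 and 145 CPM (2.69-fold, 2.35 to 3.09).

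Lower levels ran through sensors, synthetases and the transcription factor of this response. Irf7, which drives interferon genes, stood at 74.8 and 24.4 CPM (3.06-fold lower, 2.21 to 4.32). The oligoadenylate synthetase genes Oas1a and Oas3 stood at 53.7 and 11.7 CPM and at 70.5 and 17.5 CPM, 4.60-fold (2.92 to 7.58) and 4.02-fold (2.76 to 6.02) lower. Ifih1, encoding the RNA sensor MDA5, was at 55.7 and 24.4 CPM, close to the limit of the rule, and was past it under only 10 of 19 alternative settings, TMM and DESeq2 scaling being among those where it was not. The DNA-binding p200 family genes Ifi203 (266 and 94.6 CPM) and Mndal (290 and 113 CPM) were lower too, as were Samd9l, Cmpk2, Parp14, Lgals3bp, Xaf1 and Phf11b, of which Lgals3bp and Xaf1 were past the rule under 13 of the 19 settings each. T cells had Ifi203 at 293 and 218 CPM and Mndal at 272 and 169 CPM, so part of these levels is shared by other cells. The interferon receptor genes Ifnar1 (57.2 and 35.6 CPM) and Ifnar2 (77.9 and 47.8 CPM) were not past the rule, and none of 15 measured genes of the receptor and signalling list was. Summed over the list, thinned cells had a median of 10 counts in the control (10th to 90th percentile 5 to 18) and 6 in T1D (2 to 11), so the distributions overlapped. T cells had means of 4.86 and 3.97 against 10.7 and 6.53 in the members. The plasmacytoid dendritic list, which includes Irf7, summed to 284 and 130 CPM in the members, with Cox6a2 and Klk1 at 0 in both and Siglech at 0 by the rule, and the part of such cells in the interferon values was not tested.

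Promoters of these genes were searched for the core of the interferon-stimulated response element, GAAANNGAAA on either strand, in the 250 bases before and 50 after each start site in RefSeq (GRCm38.p6). It was in 3.44% of 32851 promoters and, counted by gene, in 17 of 32 measured genes of the list that had a promoter entry, against 3.99% of 27025 genes. Among the 13 genes past the size rule with an entry, 8 had a match. An NF-kB core, GGGANNTTCC, was in 1.47% of all promoters and in those of Il6 and Nfkbia only, 2 of 14 measured and 18 listed inflammatory genes with an entry (5 of them past the rule). A match is a description of letters and not of binding. The 100 bases before the start sites of 3 interferon genes that were lower and 2 NF-kB targets that were higher in T1D are shown because these groups moved in opposite directions. Capitals mark the matches, which for Oas1a are 2 that overlap, with first bases 20 and 14 bases before the start, and which for Nfkbia lie on the opposite strand. The matches begin 75, 50, 44 and 29 bases before the start of Oas3, Phf11b, Il6 and Nfkbia. The regions, in the same order as the lines, are chr5:120907526-120907625 (minus strand), chr5:120777660-120777759 (minus), chr14:59341331-59341430 (minus), chr5:30013014-30013113 (plus) and chr12:55492648-55492747 (minus).
Oas1a: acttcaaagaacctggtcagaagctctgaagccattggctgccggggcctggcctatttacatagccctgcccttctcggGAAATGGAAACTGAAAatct
Oas3: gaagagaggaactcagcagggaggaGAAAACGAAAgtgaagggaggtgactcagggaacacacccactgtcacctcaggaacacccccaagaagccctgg
Phf11b: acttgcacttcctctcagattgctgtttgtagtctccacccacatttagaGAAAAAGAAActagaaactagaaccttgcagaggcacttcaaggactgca
Il6: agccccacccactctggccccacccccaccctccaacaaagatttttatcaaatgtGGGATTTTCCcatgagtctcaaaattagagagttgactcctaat
Nfkbia: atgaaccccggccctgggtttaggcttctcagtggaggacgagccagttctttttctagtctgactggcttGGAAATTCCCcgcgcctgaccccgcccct

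MHC class II genes, whose products present peptides to CD4 T cells, were lower in T1D by the widest list median, -2.34 over 6 measured of 10 genes, of which 4 were past the rule. Cd74, the invariant chain, stood at 829 CPM in control and 122 CPM in T1D members (6.79-fold lower, 5.92 to 7.81). H2-Aa stood at 280 and 48.3 CPM, H2-Ab1 at 236 and 38.2 CPM, and H2-Eb1 at 102 and 17.5 CPM. T cells had Cd74 at 565 and 64.9 CPM and H2-Aa at 147 and 31.3 CPM. The list median was -2.11 in T cells, -1.31 in mature neutrophils and -2.39 in nonclassical monocytes. It was -0.49 in the cycling monocyte cells described below. Any of the 3 class II chains was found after thinning in 3.35% of T1D members (1.93 to 5.39%) against 1.17% of T1D T cells. In the control the share was 10.6% of members (8.17 to 13.5%) against 10.03% of T cells, so the share alone does not set the members apart. The mean thinned count was 0.632 in control members and 0.292 in control T cells, and the part of released RNA in it was not tested. The counts were concentrated, however, since the 58 control members with a thinned count held a mean of 5.95 and up to 23 each. Those 58 cells had Cd74 at 6962 CPM, Fn1 at 787 CPM, Vcan at 129 CPM and Ly6c2 at 713 CPM, whereas the other 488 control members had them at 149, 2107, 447 and 1700.5 CPM. The corresponding T1D cells numbered 16, with Cd74 at 2124 CPM and Fn1 at 1613 CPM. Over all members the conventional dendritic list summed to 203 CPM in the control and 224 CPM in T1D, of which Cd24a, also found outside dendritic cells, gave 153 and 167 CPM, and Zbtb46 was at 0 in both. The B and plasma cell list summed to 104 and 83.4 CPM, with Mzb1 at 0 in T1D. Because the rule kept out cells with Cd79a or Cd209a, these sums do not bear on the source of the class II counts, and the part of such cells was not tested. Among kept cells, 10872 of 12803 control and 15315 of 15579 T1D cells had no Cd79a. Ighm, an immunoglobulin gene, stood at 344 and 98.3 CPM in members and 899 and 125 CPM in T cells, and is read as background.

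Genes of monocyte identity did not move as a block. Of 24 measured classical monocyte genes 9 had a ratio above 0, the median was -0.36, and 3 were past the rule. Chil3 was higher, as above, and Plac8 and Klf4 were lower. Plac8, a marker of Ly6C-high monocytes, stood at 498 and 208 CPM (2.39-fold lower, 2.14 to 2.69). Ifitm6 (552 and 906 CPM), Lyz2 (11936 and 8581 CPM), Ctss (1684 and 1250 CPM) and Cst3 (1042 and 697 CPM), the first genes of the list that were not past the rule, lay on either side of equality.

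Among 15 measured monocyte transcription factors, 3 were past the rule. Klf4, a factor required for monocyte formation, stood at 418 CPM in control and 138 CPM in T1D members (3.03-fold lower, 2.64 to 3.48), in 380 and 150 cells. Cebpb, encoding C/EBP-beta, which supports monocyte survival and the acute-phase programme, stood at 122 and 316 CPM (2.58-fold higher, 2.25 to 2.97), in 207 and 315 cells. Id2, an inhibitor of E proteins, stood at 122 and 293 CPM beside 209 and 202 CPM in T cells. Spi1 (218 and 186 CPM) and Irf8 (201 and 144 CPM), which specify myeloid cells and monocytes, were not past the rule. Of the immediate early genes, whose transcripts also rise during tissue dissociation, 17 were measured and 9 had a ratio above 0. Atf3 (624 and 236 CPM, and 63.3 and 16.2 CPM in T cells) and Fosb (416 and 152 CPM, and 324 and 141 CPM in T cells) were past the rule and lower, and Ier3 was past it and higher.

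Osteoclast precursor genes were measured because the series concerns bone loss. Of 9 measured genes 1 had a ratio above 0, the median of -0.13 lay close to that of all genes, and only Cx3cr1 was past the rule. Csf1r, which the rule used, stood at 448 and 411 CPM. Tyrobp, an adaptor needed for osteoclast fusion, stood at 601 and 331 CPM, and Trem2, its partner receptor, at 49.5 and 44.6 CPM.

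Among metabolic and housekeeping lists, all 16 measured large-subunit ribosomal protein genes had a ratio below 0 (median -0.38), as did 24 of 26 nuclear oxidative phosphorylation genes (-0.25), and none of either list was past the rule. All 7 measured genes of the mitochondrially encoded list were below 0 (-0.85) and 1 was past the rule, mt-Nd2 at 454 and 189 CPM. The mitochondrial transcript mt-Rnr2, which that list leaves out, had means of 23.6 and 24.5 thinned counts per member. All mitochondrial transcripts together took a median of 3.13% of counts in control and 2.78% in T1D members. The same list had medians of -0.80 in T cells and -1.03 in mature neutrophils. Of 22 measured glycolysis genes 9 had a ratio above 0. Slc2a3, a glucose transporter, stood at 50.2 and 115 CPM beside 79.3 and 134 CPM in T cells, and Hk2, a hexokinase, at 54.5 and 20.2 CPM; both were past the rule, Slc2a3 under 13 and Hk2 under 16 of 19 alternative settings. Plin2, which coats lipid droplets, stood at 173 and 403 CPM (2.33-fold higher, 2.07 to 2.63). Fkbp5, a target of glucocorticoids, stood at 32.7 and 109 CPM, and 6 of 10 measured genes of its list had a ratio above 0. All 3 measured genes of the cold-inducible and linker histone list were above 0, with H1f0 at 47.5 and 121 CPM.

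**Figure D3:**
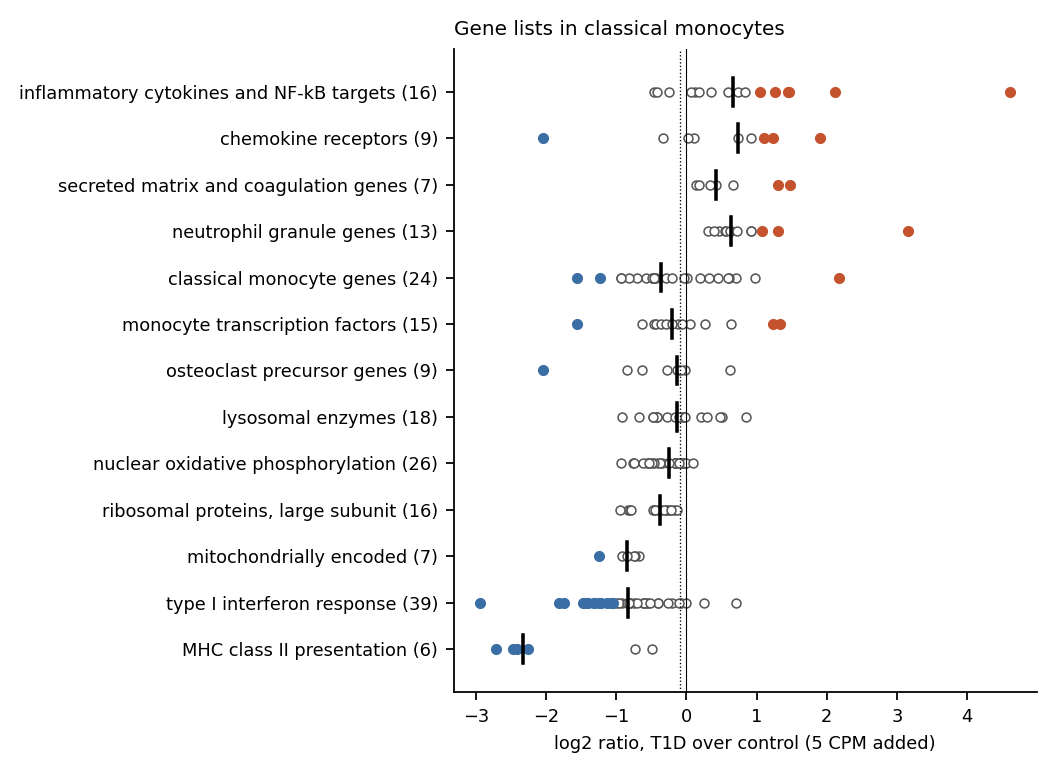
Log2 ratio of T1D over control (x axis) for the measured genes of 13 lists in classical monocytes (rows, number of measured genes in brackets). Filled points are genes past the size rule, red higher and blue lower in T1D, open points are the other genes, the black bar is the list median and the dotted line the median of all 4321 genes; the class II median is -2.34 and the interferon median -0.84.

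The same genes were read in other cells of these libraries to see where the members stood apart. Cycling monocyte cells, which met the rule but for having at least 2 division genes, numbered 548 in the control and 474 in the T1D library. Of the 85 higher genes 64 were measured in them, 63 had the same sign and 42 were past the rule. Of the 75 lower genes 59 were measured, 58 had the same sign and 12 were past the rule. Nonclassical monocytes, with Ace or Treml4, numbered 146 and 79. In them 70 of 76 higher and 60 of 63 lower genes had the same sign. In mature neutrophils the counts were 67 of 76 and 35 of 35, and in T cells 63 of 70 and 36 of 44. Over all genes measured there, 49.8% lay below 0 in cycling and 53.4% in nonclassical cells. The share was 49.9% in mature neutrophils and 54.5% in T cells. Of all 5163 genes measured in cycling cells, 64 were past the rule and higher and 21 past it and lower. These counts compare cells of the same 2 libraries, which share depth and released RNA, and are not independent of each other.

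Lists and single genes differed in how widely they moved. The interferon list had medians of -0.84 in the members, -0.93 in nonclassical monocytes and -0.43 in cycling monocyte cells. Its medians were -0.60 in mature neutrophils and -0.44 in T cells. Ifi27l2a was lower in T1D in cycling monocyte cells (138 and 8.86 CPM), nonclassical monocytes (392 and 60.7 CPM) and mature neutrophils (78.7 and 5.47 CPM) as well. Ifitm3 had log2 ratios of -1.25 in the members and -1.24 in mature neutrophils. Cebpb was higher in all 5 cell groups, with 103 and 294 CPM in mature neutrophils. Saa3 was at 0 and 209 CPM in nonclassical monocytes but at 5.78 and 32.5 CPM in cycling monocyte cells. Chil3 stood at 1333 and 3336 CPM in cycling monocyte cells and 1351 and 3723 CPM in nonclassical monocytes, but at 2725 and 2341 CPM in mature neutrophils. Thbs1 was past the rule in both of these lineages in opposite directions, at 977 and 2732 CPM in the members and 1712 and 808 CPM in mature neutrophils. With 1 library per condition these differences between cell types were not tested.

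**Figure D4:**
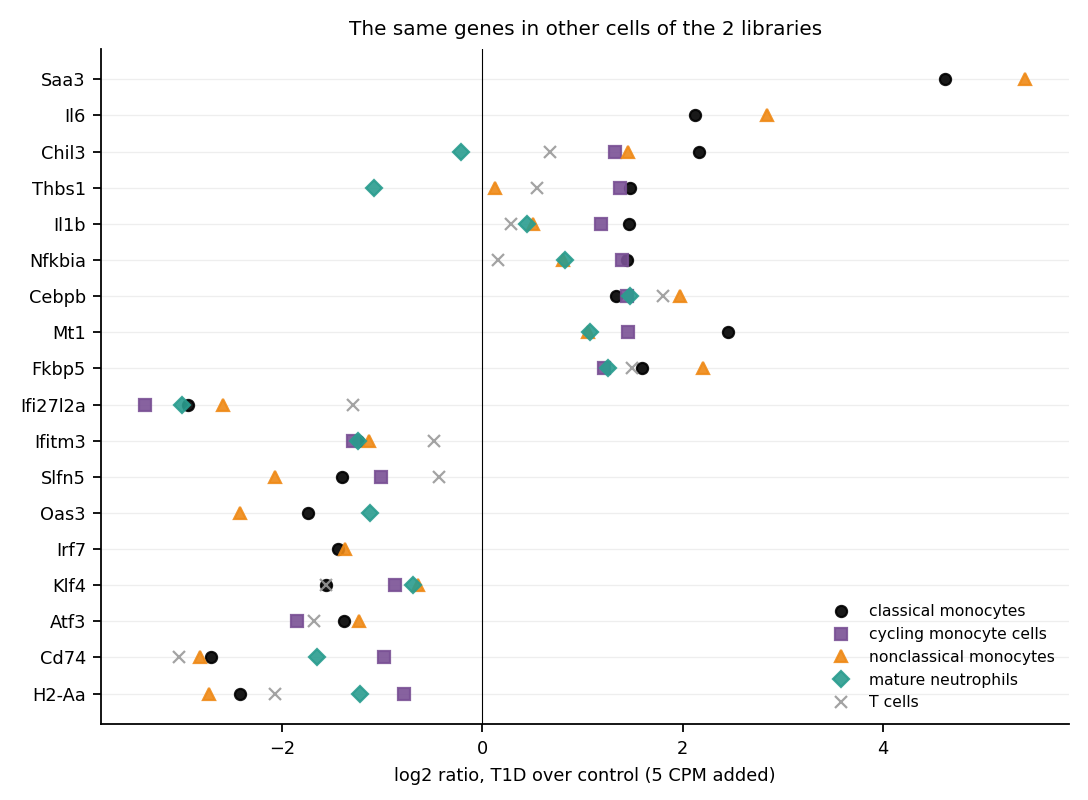
Log2 ratio of T1D over control (x axis) for 18 named genes (rows) in classical monocytes, cycling monocyte cells, nonclassical monocytes, mature neutrophils and T cells (symbols), drawn only where the gene had a mean of at least 25 CPM in those cells. Thbs1 lies on either side of 0 in monocytes and neutrophils, whereas Ifi27l2a lies below 0 in all 5 groups.

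Neutrophil transcripts were among the most variable between members. Of 1088 genes with a mean of at least 0.1 thinned counts in both libraries, 20 had a variance over mean of at least 2 in both, beside a median of 1.13 and 1.15. Ranked by the lower of its values in the 2 libraries, Retnlg came first, at 20.4 in the control and 24.8 in T1D, with up to 49 and 76 of 1000 thinned counts in 1 cell. Camp (18.4 and 16.8) and Ngp (24.5 and 15.5) followed, so in the control library alone Ngp stood above Retnlg. The ribosomal RNA feature came next (12.9 and 18.1), and took a median of 32.7% of counts in control and 34.6% in T1D members. Lyz2, the lysozyme gene of the lineage, varied less, at 3.77 in both. Erythroid transcripts were uneven in another way, since 1 T1D member held 74.9% of the T1D counts of Hbb-bs, and 1 control member held 97.2% of the control counts of the basophil gene Prss34. The 4 hemoglobin genes and Prss34, which passed the size rule, are therefore not read as differences between the monocytes. No doublet caller was run, and the highest totals of a member were 10721 counts in the control and 10957 in T1D. The libraries shared 253 cell barcodes, of which none was a member in both.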

How the data were processed

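Each library was prepared with a Singleron GEXSCOPE single-cell kit, per the labels' protocols, and deposited by the authors as a table of whole-number counts per gene and cell barcode. Per the submitters' processing notes, bcl2fastq 2.19, featureCounts and the mm9 build were used; for the aligner, the annotation and any collapsing of molecular identifiers: not given in the sources used here. Coordinates printed are those of the RefSeq promoter table (GRCm38.p6) and not of the counts. The tables held 12880 control and 15771 T1D barcodes with 57494166 and 52022458 counts, of which 77 and 192 barcodes were removed by the minimum of 200 genes and the limit of 20% mitochondrial counts.

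From the deposited counts, member counts were summed per library and scaled to CPM, and ratios used 5 CPM added (Python 3.11.15, numpy 2.4.6, scipy 1.17.1). Intervals were exact at 95%: Clopper-Pearson for shares and conditional binomial for ratios. Shares compared across depths used cells thinned once to 1000 counts. A count of 0 was given an upper limit of 3 counts. With 1 library per condition no test across libraries was possible. The summing and calling were tested on simulated data. Scaling by TMM (edgeR 4.0.16) and by DESeq2 1.42.0 size factors, both in R 4.3.3, served as alternatives only, beside other pseudocounts, minimum levels, member rules and subtraction of free RNA.

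Genes named in the text were those of the rule, the 15 with the largest fold over other cells at 100 CPM or more in both libraries, the 15 with the largest ratio in each direction (leaving out genes of the rule, hemoglobin, immunoglobulin, mitochondrial, sex-linked and unnamed genes), genes of 47 lists that were past the size rule or stood first in list order, and the 10 most variable genes. A few others are named beside a result that concerns them, chosen after their values were seen. The members and the lists were chosen with earlier results of these data known. Of 668 list genes, 4 were in neither table. Some genes that met these rules are not reported here.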

Additional observations from a re-analysis of the deposited data

Results flagged for a closer look

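Among the genes past the size rule in classical monocytes, 3 were past it in the opposite direction in another cell group of the same libraries. With 1 library per condition the difference was not tested for any of them. Thbs1 had a log2 ratio of T1D over control of 1.48 in the monocytes and -1.08 in mature neutrophils. AW112010, a transcript with high levels in T cells, had 1.31 in the monocytes, at 21.4 and 60.6 CPM, and -1.25 in T cells. Tmem176b, a membrane protein gene of myeloid cells, had -1.04 in the monocytes, at 123 and 57.4 CPM, and 1.04 in T cells. The Tmem176b value in the monocytes was past the size rule under only 11 of 19 alternative settings, and not under TMM or DESeq2 scaling. AW112010 was past it under 16.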

How the results depend on the processing

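The ratio of the member share, T1D over control, was 0.718 and stayed below 1 under all 7 alternatives. It was 0.879 among cells at or above the common lowest total of 1904 counts, 0.549 with at least 2 Csf1r counts and, in an alternative chosen after seeing the data, 0.576 with no excluding genes asked for. The 85 higher and 75 lower genes became 50 and 36 with 20 CPM added, 159 and 192 at a minimum of 5 CPM, and 32 and 22 at a minimum of 100 CPM. Thinning each member to 1000 counts gave 121 higher and 204 lower, so that 37.2% of calls were higher, against 53.1%. TMM and DESeq2 scaling gave 95 and 60, and 96 and 59, and shifted the all-gene median by 0.06 and 0.07. With the ribosomal RNA feature left out there were 118 higher and 95 lower genes. Of the 160 genes, 38 were past the size rule under all 19 alternatives and 154 did not change sign, although Hba-a1 and Hbb-bt reached 0.00 after hemoglobin-level subtraction. Those that changed sign were AA467197 (-0.038) and Prok2 (-0.16) without members rich in neutrophil transcripts, Hbb-bs (-0.57), Olfm4 (-0.95) and Prtn3 (-0.14) after subtracting free RNA at the hemoglobin level, and Prss34, at 2.08 without members carrying progenitor transcripts and 1.06 without the 2 members of each library that led in hemoglobin or Prss34, the latter added after seeing the data. Subtraction at the hemoglobin level also moved the primary granule median from 0.69 to -1.85. This setting took free RNA as 4.33% of member counts in the control and 21.2% in T1D. The plasma cell setting took it as 1.58% and 4.05%. A single T1D member held most of the T1D Hbb-bs counts, as given above. The cause of these changes was not tested. List medians ranged from -0.89 to -0.69 for the interferon response, from -2.79 to -1.75 for MHC class II, from 0.52 to 0.83 for inflammatory genes, from 0.25 to 0.79 for neutrophil granule genes, and from 0.22 to 0.86 for chemoattractant receptors. No paired analysis was possible because each condition had 1 library, and no library could be left out. Il6 was counted in 17 control members and Oas1a in 17 T1D members, so their ratios have wide counting intervals.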
